A study of Mus musculus with 5 samples.

Results

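The genes described here carry out glycolysis, the pentose phosphate pathway and the making and export of lactate, and include the enzymes and factors that set the rate of these routes. They were taken from a list of 36 gene symbols, and each gene was read from the array feature that names only that gene and had the highest mean over all 5 arrays. Of the 36 genes, 30 were measured, out of 22180 genes in the whole series. Aldoa and Tkt lie only on features that also name another gene, and Gpi1, Eno1, Pfkfb1 and G6pdx were not analysed here. The study concerned retinoic acid and the dormancy of hematopoietic stem cells (HSCs), the bone marrow cells from which all blood lineages are renewed. HSPCs (hematopoietic stem and progenitor cells) from C57BL/6 animals spent 24 h in culture with 5 µM all-trans retinoic acid (ATRA), the active form of vitamin A, or with DMSO, its solvent, as control, and HSCs were sorted by flow cytometry afterwards. All groups therefore share the culture and the sort, and the labels name neither the gate nor the age of the mice. RNA of the sorted cells was read on 3 DMSO arrays and 2 ATRA arrays. Whether replicates are separate cultures or animals is not in the labels, so p-values reflect the spread between these arrays, and that spread may be technical.

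Glycolysis splits glucose into pyruvate in the cytosol and yields ATP without oxygen, and pyruvate is then either reduced to lactate, which leaves the cell with a proton, or carried into mitochondria and oxidised. The pentose phosphate pathway branches off after the first step and supplies NADPH, through its oxidative arm, and ribose for nucleotides, through both arms. HSCs in the marrow are known for a high reliance on glycolysis and for stabilised HIF-1α, the oxygen-sensitive factor that switches on most glycolytic genes, and activated HSCs are known to raise mitochondrial oxidation.

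Values are deposited log2 expression values, so that a difference of 1 is a doubling. The ATRA arrays spanned a narrower range than the DMSO arrays, with an SD over all features of 1.77 and 1.49 against 1.96 to 1.97 in DMSO, and the brightest genes of the DMSO arrays were lower in both. ATRA replicate 1 correlated with the DMSO mean over all features at 0.83 and replicate 2 at 0.63, against 0.99 for each DMSO array, and the cause of this gap, which bears on every fold below, was not tested. The 450 genes whose DMSO mean lay between 9.5 and 10 had a median difference of -1.42 in ATRA replicate 1 and of -2.75 in ATRA replicate 2, against 0.31 and 0.77 for the 1095 genes between 4 and 4.5. Over all genes, 3428 (15.5%) were lower and 1437 (6.48%) higher with ATRA at a limma adjusted p under 0.05, the threshold used throughout. The genes were therefore also compared with this trend on level removed, by subtraction from each array of a smooth fit of its difference from the DMSO mean on the DMSO mean. In that fit 262 genes (1.18%) were lower and 363 (1.64%) higher. The median gene differed by 0.16 as deposited, and by -0.11 once all arrays were centred on their medians, where 4542 genes (20.5%) were lower and 560 (2.52%) higher. No gene of the 22180 passed when any 1 DMSO array was left out, with the trend removed or not, so every call below needs all 3 DMSO arrays. The 8 HSC markers measured, of 10 listed, lay above the array median in all DMSO arrays. Their summed level on the log2 scale was 12.54 to 12.66 in DMSO and 9.97 to 11.47 in ATRA, and as deposited 4 of them (Kit, Mecom, Fgd5 and Hlf) fell. With the trend removed 0 of the 8 were called, with 2 lower and 2 higher at an unadjusted p under 0.05 (limma). Kit (-0.89), Mecom (-0.70) and Fgd5 (-0.55) then lay below all DMSO values, and Cd34 (0.94) and Procr (0.43) above them. That of 12 neutrophil and monocyte markers was 9.54 to 9.81 in DMSO and 9.84 to 9.99 in ATRA, that of 9 lymphoid markers 9.01 to 9.11 and 9.27 to 9.65, that of 5 megakaryocyte markers 10.86 to 11.28 and 10.32 to 10.91, that of 5 mast cell and basophil markers 7.20 to 7.42 and 7.87 to 7.93, and that of 3 erythroid markers, of 8 listed, 8.30 to 8.79 and 7.55 to 8.39. Of these other markers, Itga2b fell (-2.07) and S100a9 rose (0.81) as deposited, while Pf4 (1.90) and Nkg7 (0.78) were the ones called, both higher, with the trend removed. The part of these shifts in the results below was not tested. In sorted bulk RNA, fewer cells of a type and less RNA per cell cannot be told apart.

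As deposited, 15 of the 30 genes fell with ATRA, 0 rose and 15 did not pass, where 15.5% of all genes were lower. The 15 that fell included both glucose importers and 1 of 3 hexokinases. They also held 3 of 5 genes of upper glycolysis and 4 of 5 of lower glycolysis. The rest were lactate dehydrogenase A, the lactate transporter Slc16a1, the regulator Pfkfb2 and 1 gene in each arm of the pentose phosphate pathway. The aldolase and enolase genes measured, Aldoc and Eno2, did not pass. The median difference of the 30 genes was -1.10, and that of all genes 0.16. In the single arrays the medians of the 30 were -0.77 in ATRA replicate 1 and -1.18 in replicate 2. Both ATRA values lay below all 3 DMSO values in 23 of the 30 genes, as they did in 29.2% of all genes, and in 0 of the 30 both lay above, against 33.0% of all genes. With arrays centred, 17 genes fell, H6pd and Rpia among them, beside 20.5% of all genes. Without DMSO replicate 1, 2 or 3, 0 of the 30 were called lower or higher in the limma fit. At an unadjusted p under 0.05, 17, 18 and 16 of the 30 were then lower, beside 17.3%, 17.8% and 17.6% of all genes, and 0 higher, beside 9.71%, 9.58% and 9.06%. Without ATRA replicate 1 or 2, 19 and 17 were called lower, beside 30.6% and 21.3% of all genes, with the lone ATRA array assumed to vary like the DMSO arrays.

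**Figure D1:**
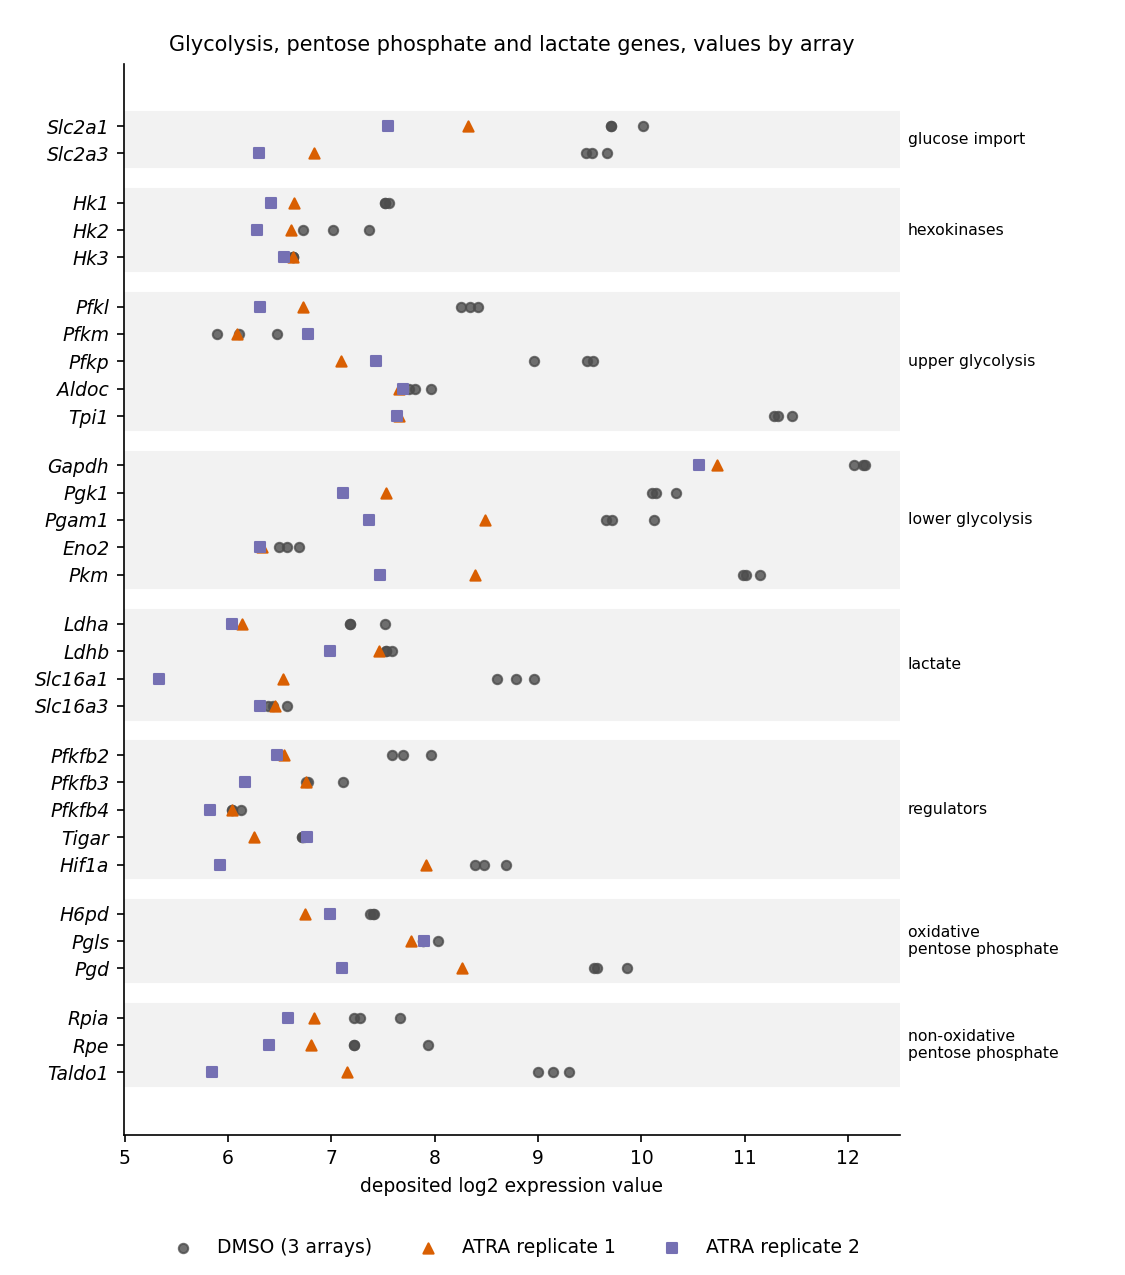
Deposited log2 value (horizontal axis) of each of the 30 genes in the 3 DMSO arrays (grey circles) and in ATRA replicates 1 (orange triangle) and 2 (violet square), grouped by step of the pathway. Genes with high DMSO values such as Tpi1, Pkm and Pgk1 lie far to the left in both ATRA arrays, while Hk3, Slc16a3, Pgls and Aldoc hardly move.

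The calls followed the level of the genes. Among genes with a mean over all arrays of 8 or more, all 10 of the pathway's genes in that class were called lower, as were 45.3% of its 2943 genes in the series. This class has no upper bound, and DMSO means of the 10 ran from 9.15 (Taldo1) to 12.12 (Gapdh). In ATRA replicate 2 the median of all genes was -1.53 at a DMSO mean of 8 to 8.5 and -3.58 at 11 to 11.5. The 10 and the 2943 were therefore not matched in level. From 7 to 8 it was 4 of 11, against 38.1% of 4317 genes, and from 6 to 7 it was 1 of 9, against 7.39% of 5807 genes. No pathway gene lay below 6. With the level trend removed, 2 of the 30 were called lower, Slc16a1 and Taldo1, and 0 higher, beside 1.18% and 1.64% of all genes. At an unadjusted p under 0.05 (limma) 8 of the 30 were lower and 2 higher, beside 12.6% and 10.6% of all genes. The median difference became -0.31, against -0.03 for all genes, and 24 of 30 differences were negative. Both ATRA values lay below all DMSO values in 13 genes (26.0% of all genes) and above them in 3 (19.3% of all genes). After cyclic loess normalization, which bends the arrays toward each other at every level, 7 genes were called lower (6.78% of all genes) and 0 higher (3.48%), namely Slc2a3, Hk1, Pfkl, Ldha, Slc16a1, Pfkfb2 and Taldo1. Without DMSO replicate 1, 2 or 3 the trend-removed limma count was 0 lower and 0 higher. At an unadjusted p under 0.05, 6, 5 and 4 of the 30 were then lower, beside 7.01%, 7.08% and 6.73% of all genes, and 0, 2 and 1 higher, beside 6.53%, 6.38% and 6.10%. Without ATRA replicate 1 the count was 10 lower and 3 higher (Gapdh, Pgls and Aldoc), beside 21.9% and 19.7% of all genes. Without ATRA replicate 2 it was 10 lower and 0 higher, beside 10.5% and 13.2% of all genes, with 3 higher at an unadjusted p under 0.05 (limma), as were 4428 of all 22180 genes.

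**Figure D2:**
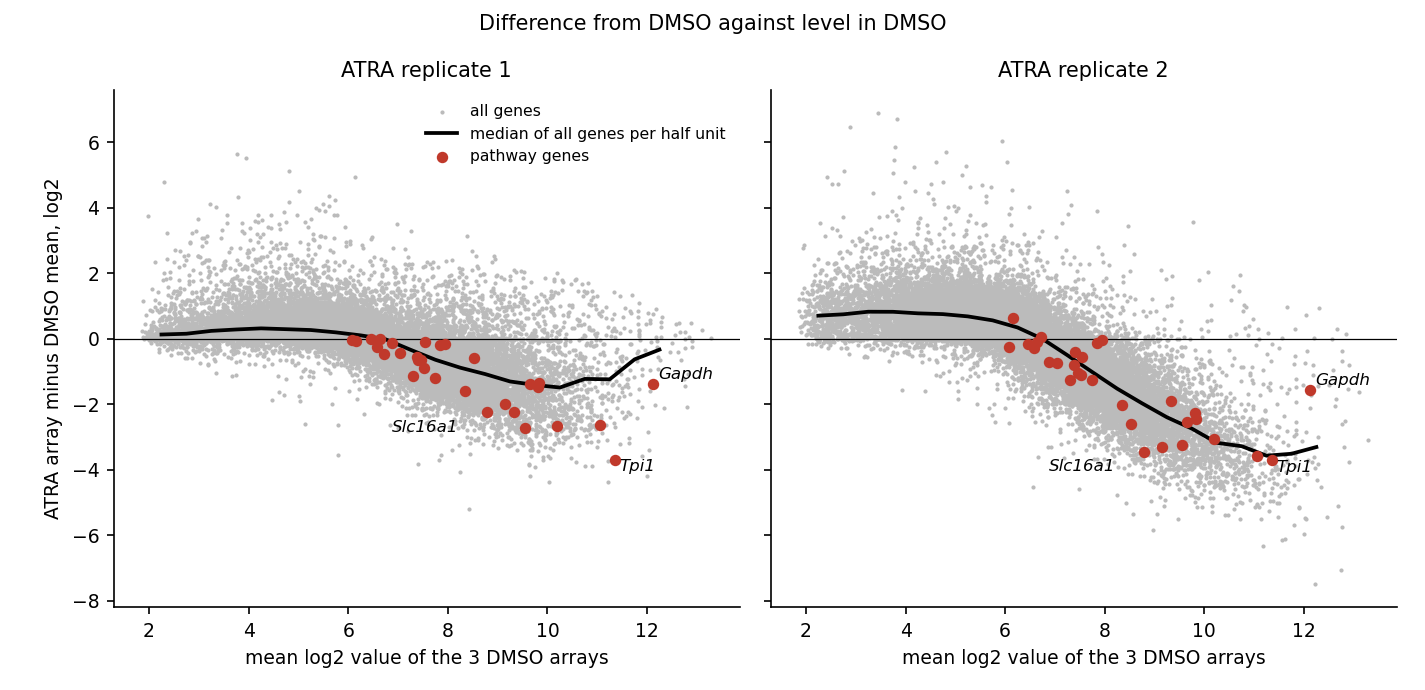
Difference of each ATRA array from the DMSO mean (vertical axis, log2) against the DMSO mean (horizontal axis, log2) for all 22180 genes (grey) and the 30 pathway genes (red), with the median of all genes per step of 0.5 in level as a black line. The line falls from above 0 at low levels to -3.18 at a level of 10 to 10.5 in ATRA replicate 2 and to -1.49 in replicate 1, and most pathway genes lie near or below it, while Gapdh lies above it in replicate 2.

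Glucose enters blood cells through the facilitative transporters GLUT1 (Slc2a1) and GLUT3 (Slc2a3), of which GLUT3 has the higher affinity for glucose. Slc2a3 was at 9.67, 9.46 and 9.52 in the DMSO arrays and at 6.83 and 6.30 in the ATRA arrays. Both ATRA arrays lay far below the DMSO arrays, and Slc2a3 was 7.91-fold lower (difference -2.98, SE 0.20, adjusted p = 0.00672). With the level trend removed it stood at 8.04 and 8.90 in ATRA against 9.48 to 9.65 in DMSO, still below all DMSO values, with a difference of -1.08 that did not pass (SE 0.27, adjusted p = 0.107). Slc2a1 was at 10.02, 9.71 and 9.71 in DMSO and at 8.32 and 7.54 in ATRA, a fall of 1.88 (SE 0.28, adjusted p = 0.0185) that became a difference of 0.14 with the trend removed (adjusted p = 0.79). A second, much dimmer feature of Slc2a1 was at 5.37 to 5.50 in DMSO and at 5.50 and 7.0 in ATRA. It did not pass (difference 0.81, limma adjusted p = 0.273 over all features). All genes with a DMSO mean of 5 to 5.5 had a median difference of 0.26 in ATRA replicate 1 and 0.68 in replicate 2. The features of Slc2a1 lay at different levels and did not move alike.

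Hexokinases trap glucose in the cell by phosphorylation. Hk1, the isoform bound to mitochondria in most tissues, was at 7.52, 7.55 and 7.52 in DMSO and at 6.64 and 6.42 in ATRA, a 2.0-fold lower value (difference -1.0, SE 0.12, adjusted p = 0.013). Hk1 differed by -0.42 with the trend removed, with both ATRA values below all DMSO values (adjusted p = 0.147). Hk2, the isoform induced by insulin, HIF-1 and MYC, differed by -0.59 (SE 0.24, adjusted p = 0.145), and by -0.41 with the trend removed (adjusted p = 0.342). Hk3, an isoform of myeloid cells, was deposited at 6.63 in all 3 DMSO arrays and in ATRA replicate 1, identical to the printed digit, and at 6.54 in ATRA replicate 2. Hk3 is the 1 gene of the 30 with no spread in DMSO, a state shared by 1435 of all genes, so its difference of -0.05, or -0.14 with the trend removed, carries little information.

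In upper glycolysis, phosphofructokinase commits sugar to the pathway, aldolase cleaves it and triose phosphate isomerase interconverts the resulting triose phosphates. Tpi1 showed the largest deposited change of the 30 genes. It was at 11.46, 11.28 and 11.32 in DMSO and at 7.66 and 7.63 in ATRA, 13.1-fold lower (difference -3.71, SE 0.12, adjusted p = 0.00627). The ATRA arrays had almost the same deposited value, but with the trend removed they parted, to 8.77 in replicate 1 and 11.49 in replicate 2 against 11.29 to 11.44 in DMSO (difference -1.23, SE 0.78, adjusted p = 0.39). Pfkl, the liver-type phosphofructokinase subunit, was at 8.25, 8.34 and 8.42 in DMSO and at 6.72 and 6.31 in ATRA (difference -1.82, SE 0.17, adjusted p = 0.00862). Its fall passed after cyclic loess normalization (-1.05, adjusted p = 0.0164) but not with the trend removed (-0.62, adjusted p = 0.106), where both ATRA values stayed below DMSO. Pfkp, the platelet-type subunit, fell by 2.06 (adjusted p = 0.0113) and differed by -0.26 with the trend removed (adjusted p = 0.774). The muscle-type subunit gene Pfkm, at 6.48, 5.89 and 6.11 in DMSO and 6.09 and 6.77 in ATRA, overlapped between groups (0.27, adjusted p = 0.466, and -0.05 with the trend removed). Aldoc, the aldolase of brain, was at 7.75 to 7.97 in DMSO and at 7.65 and 7.70 in ATRA (difference -0.17, adjusted p = 0.309), and lay above DMSO by 0.67 with the trend removed, which did not pass either (adjusted p = 0.146).

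Lower glycolysis harvests energy, with ATP made by phosphoglycerate kinase (Pgk1) and pyruvate kinase (Pkm). Pkm was at 11.01, 10.98 and 11.15 in DMSO and at 8.39 and 7.47 in ATRA, 8.65-fold lower (difference -3.11, SE 0.30, adjusted p = 0.00886). Pgk1 was at 10.10, 10.14 and 10.33 in DMSO and at 7.53 and 7.12 in ATRA, 7.30-fold lower (difference -2.87, SE 0.18, adjusted p = 0.00639). Both differed by -0.72 with the trend removed, and neither passed (adjusted p = 0.399 for Pkm and 0.363 for Pgk1), and their groups overlapped. Pkm then stood at 9.53 in ATRA replicate 1 and at 11.12 in replicate 2, against 10.99 to 11.15 in DMSO, so the ATRA arrays parted. The phosphoglycerate mutase gene Pgam1 fell by 1.91 (SE 0.39, adjusted p = 0.0358) but differed by 0.11 with the trend removed (adjusted p = 0.784). A second feature of Pgam1 was at 8.61 to 9.07 in DMSO and at 6.83 and 8.20 in ATRA replicates 1 and 2. It did not pass (difference -1.26, limma adjusted p = 0.137 over all features). Its ATRA arrays stood in the reverse order to those of the feature used. The neuronal enolase gene Eno2 differed by -0.27 (adjusted p = 0.17) as deposited and by -0.40 (adjusted p = 0.185) with the trend removed, in both cases with the ATRA values below all DMSO values.

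Gapdh, the dehydrogenase of glycolysis that is often used as a reference transcript, changed direction with the scaling of the arrays. It was at 12.16, 12.14 and 12.06 in DMSO and at 10.73 and 10.56 in ATRA, 2.79-fold lower (difference -1.48, SE 0.12, adjusted p = 0.00739), a direction that flipped to 1.22 with the trend removed (SE 0.90, adjusted p = 0.457) and to 0.84 after cyclic loess normalization (adjusted p = 0.556). At the level of Gapdh, from 12 to 12.5 in DMSO, 26 genes had a median difference of -0.34 in ATRA replicate 1 and -3.31 in replicate 2. Gapdh differed by -1.39 and -1.56, more than these genes in replicate 1 and less in replicate 2. With the trend removed Gapdh stood at 11.75 in ATRA replicate 1 and at 14.92 in replicate 2, against 12.07 to 12.15 in DMSO. The smooth fit thus moved Gapdh by more than the median of these 26 genes in both ATRA arrays. The size of its trend-removed difference is therefore uncertain. Pseudogene copies of Gapdh are many in the mouse genome, and 8 further features that name Gapdh with another gene were left out. The other 2 features naming Gapdh alone differed by -1.12 (adjusted p = 0.0759 over all features) and -1.53 (adjusted p = 0.0862), in the same direction as the feature used.

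**Figure D3:**
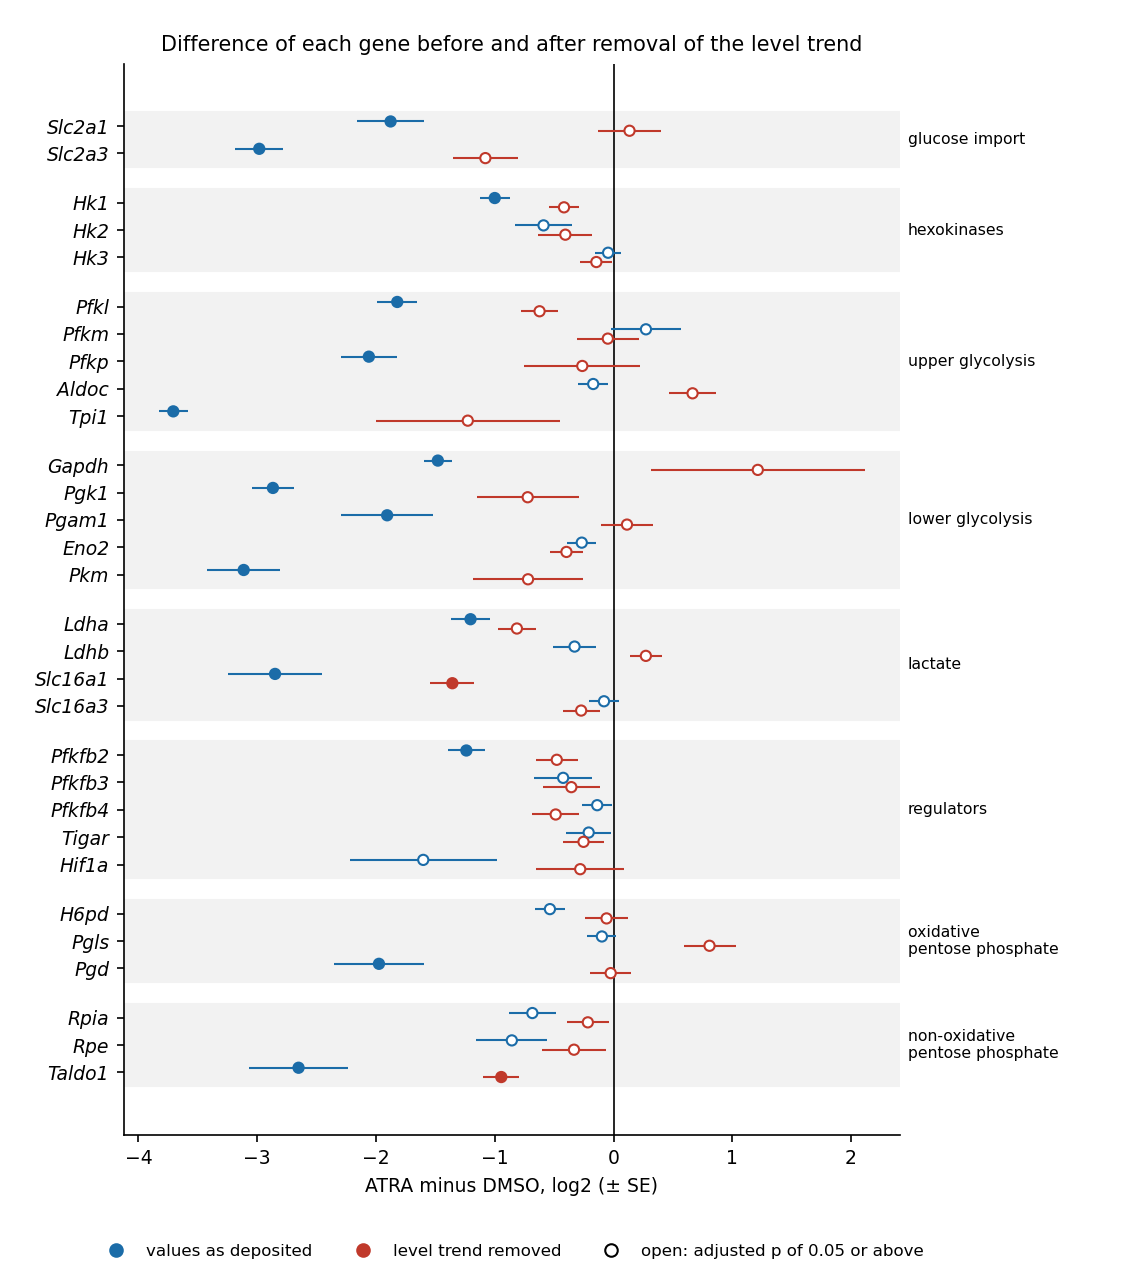
Difference between ATRA and DMSO means (horizontal axis, log2, with SE) for each of the 30 genes, with deposited values in blue and after removal of the level trend in red, filled where the limma adjusted p was under 0.05. The 15 filled blue points lie between -3.71 and -1.0, and of the red points Slc16a1 (-1.36) and Taldo1 (-0.95) are filled.

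Lactate dehydrogenase is a tetramer of A subunits, which favour making lactate, and B subunits, which favour turning it back into pyruvate. Lactate crosses the membrane through MCT1 (Slc16a1), which carries it both ways, and MCT4 (Slc16a3), the exporter of strongly glycolytic cells. Slc16a1 was at 8.60, 8.79 and 8.96 in the DMSO arrays and at 6.53 and 5.33 in the ATRA arrays. It was 7.21-fold lower (difference -2.85, SE 0.39, adjusted p = 0.0158), and the groups did not overlap. With the level trend removed Slc16a1 was at 8.57, 8.81 and 8.98 in DMSO and at 7.57 and 7.29 in ATRA, so the ATRA arrays agreed more closely than as deposited. The change was then -1.36 (SE 0.19, adjusted p = 0.038), which is 2.56-fold lower, and it was -2.06 after cyclic loess normalization (adjusted p = 0.0164) and -2.76 after quantile normalization (adjusted p = 0.0347). Of the 30 genes, Slc16a1 alone was called lower in all 8 settings of normalization, filter, feature and variance model that used all arrays without a block. The trend-removed call was lost without any 1 DMSO array, at -1.46, -1.34 and -1.26 (adjusted p = 0.19, 0.199 and 0.21).

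Ldha was at 7.52, 7.18 and 7.18 in DMSO and at 6.14 and 6.04 in ATRA, 2.30-fold lower (difference -1.20, SE 0.16, adjusted p = 0.0151). After removal of the trend it was at 6.44 and 6.53 in ATRA against 7.19 to 7.5 in DMSO, a difference of -0.81 that did not pass (SE 0.16, adjusted p = 0.0671). Its call held after cyclic loess normalization (-1.12, adjusted p = 0.0227). Ldhb was at 7.53, 7.59 and 7.53 in DMSO and at 7.46 and 6.99 in ATRA (difference -0.33, adjusted p = 0.227), and with the trend removed its ATRA values lay above all DMSO values (0.27, adjusted p = 0.286). Slc16a3 overlapped between groups, at 6.39, 6.57 and 6.44 in DMSO and 6.46 and 6.31 in ATRA (-0.08, adjusted p = 0.618, and -0.27 with the trend removed, where both ATRA values lay below DMSO, adjusted p = 0.349).

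HIF-1 is a textbook activator of Ldha and Pgk1, and MYC of Ldha and Slc16a1. The windows of 250 bases upstream of the RefSeq starts of these genes are therefore shown. Beside them is the window of Taldo1, the gene of the pentose phosphate pathway that kept its call with the trend removed. Capitals mark ACGTG, a form of the core that HIF-1 binds, wherever a search of both strands found it. CACGTG, the MYC site that contains ACGTG, is marked too. The other form of the core, GCGTG, was neither marked nor counted here, and the Slc16a1 and Taldo1 windows hold it. All 4 are read 5′ to 3′ on the + strand of GRCm38.p6, upstream of a start on that strand.
Ldha, chr7:46845554-46845803: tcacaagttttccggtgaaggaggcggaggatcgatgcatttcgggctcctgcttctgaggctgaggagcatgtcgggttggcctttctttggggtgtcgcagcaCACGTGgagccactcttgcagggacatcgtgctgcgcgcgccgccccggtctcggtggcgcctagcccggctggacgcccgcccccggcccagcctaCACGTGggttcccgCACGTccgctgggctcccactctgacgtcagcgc
Slc16a1, chr3:104638414-104638663: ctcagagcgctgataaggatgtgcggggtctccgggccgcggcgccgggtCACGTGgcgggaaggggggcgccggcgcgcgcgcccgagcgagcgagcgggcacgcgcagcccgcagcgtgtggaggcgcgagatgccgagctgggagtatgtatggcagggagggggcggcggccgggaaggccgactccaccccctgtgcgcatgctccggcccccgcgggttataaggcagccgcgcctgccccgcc
Pgk1, chrX:106186850-106187099: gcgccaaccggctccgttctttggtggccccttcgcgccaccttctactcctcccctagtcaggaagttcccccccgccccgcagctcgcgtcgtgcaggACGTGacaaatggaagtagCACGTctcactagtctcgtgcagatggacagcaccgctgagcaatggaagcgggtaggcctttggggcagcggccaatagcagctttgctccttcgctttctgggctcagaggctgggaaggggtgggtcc
Taldo1, chr7:141391910-141392159: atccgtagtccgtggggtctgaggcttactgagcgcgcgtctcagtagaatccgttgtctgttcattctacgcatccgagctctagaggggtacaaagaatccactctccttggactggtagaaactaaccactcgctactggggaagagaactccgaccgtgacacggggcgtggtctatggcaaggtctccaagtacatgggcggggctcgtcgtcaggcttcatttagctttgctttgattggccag
The Ldha window holds 3 marked stretches, of which 2 are CACGTG, the Slc16a1 window holds 1, which is CACGTG, the Pgk1 window 2 and the Taldo1 window none. A second RefSeq start of Ldha has no match. Promoter windows were found for 35 of the 36 listed genes, 53 windows in all, some of which overlap. ACGTG on either strand was in 18 of the 53 (34%) and in 16.6% of all 32851 windows, and CACGTG was in 11.3% and 6.02%. The windows of the listed genes were richer in G and C, with a median of 59.2% against 52.4%, and the part of base composition in the shares was not tested. The DR5 element, a direct repeat that retinoic acid receptors bind, searched on both strands, was in 0 of the 53 and in 0.0883% of all windows. The element is so rare in such windows (29 of 32851) that its absence from the 53 carries no information. ACGTG was in a window of 7 of the 14 genes that fell and have a window, and of 6 of the 15 that did not pass.

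The bifunctional enzymes of the Pfkfb family make and break fructose 2,6-bisphosphate, the strongest activator of phosphofructokinase, and Tigar breaks it down, which turns sugar toward the pentose phosphate pathway. Pfkfb2 was at 7.96, 7.70 and 7.59 in DMSO and at 6.55 and 6.47 in ATRA, 2.36-fold lower (difference -1.24, SE 0.16, adjusted p = 0.0134). It differed by -0.48 with the trend removed, with both ATRA values below DMSO (adjusted p = 0.199), and its call held after cyclic loess normalization (-0.77, adjusted p = 0.0463). Pfkfb3, which favours the making of the activator, differed by -0.42 (adjusted p = 0.238) and Pfkfb4 by -0.14 (adjusted p = 0.404), and ATRA replicate 1 lay at or within the DMSO range for both. They differed by -0.36 and -0.49 with the trend removed (adjusted p = 0.413 and 0.223). Tigar, a p53 target, was at 6.74, 6.72 and 6.72 in DMSO and at 6.26 and 6.77 in ATRA, so the ATRA arrays fell on opposite sides of DMSO (-0.21, adjusted p = 0.39, and -0.25 with the trend removed, adjusted p = 0.426).

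Hif1a encodes the HIF-1 subunit that oxygen regulates mainly through protein stability. It was at 8.69, 8.39 and 8.47 in DMSO and at 7.91 and 5.92 in ATRA. Both ATRA values were lower, but they were further from each other than the nearer one was from DMSO, and the difference of -1.60 did not pass (SE 0.62, adjusted p = 0.131). With the trend removed the groups overlapped (-0.28, adjusted p = 0.678). A dimmer second feature of Hif1a, at 4.66 to 4.84 in DMSO, differed by 0.54 (limma adjusted p = 0.113 over all features). All genes with a DMSO mean of 4.5 to 5 had a median difference of 0.29 in ATRA replicate 1 and 0.75 in replicate 2.

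In the oxidative arm of the pentose phosphate pathway, Pgd, the second NADPH-yielding dehydrogenase, was at 9.86, 9.55 and 9.57 in DMSO and at 8.26 and 7.11 in ATRA, 3.93-fold lower (difference -1.98, SE 0.38, adjusted p = 0.0319). With the trend removed the difference was -0.02 (adjusted p = 0.947). H6pd, the dehydrogenase of the endoplasmic reticulum, was at 7.42, 7.38 and 7.40 in DMSO and at 6.74 and 6.99 in ATRA and just missed the threshold (difference -0.54, SE 0.13, adjusted p = 0.0501, and -0.06 with the trend removed). Without dim features it passed (adjusted p = 0.0448), as it did when arrays were centred (adjusted p = 0.0171). Pgls, the lactonase between the dehydrogenases, was at 7.89, 7.89 and 8.03 in DMSO and at 7.78 and 7.90 in ATRA (difference -0.10, adjusted p = 0.526). Against genes of its level, Pgls lay above all DMSO values, by 0.81 with the trend removed, without passing (SE 0.22, adjusted p = 0.121).

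In the non-oxidative arm, transaldolase (Taldo1) and transketolase shuffle carbon between pentose and glycolytic sugars, and the isomerase Rpia and the epimerase Rpe prepare the pentoses. Taldo1 was at 9.30, 9.15 and 9.0 in the DMSO arrays and at 7.15 and 5.85 in the ATRA arrays, 6.28-fold lower (difference -2.65, SE 0.42, adjusted p = 0.0209). With the trend removed the values were 9.28, 9.17 and 9.02 in DMSO and 8.30 and 8.12 in ATRA, again closer to each other than as deposited. The change was then -0.95 (SE 0.15, adjusted p = 0.0478), 1.92-fold lower. Its call was lost after quantile normalization, though not its size (-2.43, adjusted p = 0.0572), and the trend-removed call was lost without any 1 DMSO array, at -0.88, -0.94 and -1.01 (adjusted p = 0.232, 0.239 and 0.226). Rpia and Rpe differed by -0.68 (adjusted p = 0.0736) and -0.86 (adjusted p = 0.107), with both ATRA values below DMSO in each, and by -0.22 and -0.33 with the trend removed (adjusted p = 0.49 and 0.498).

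Isozymes of a step were also compared within each array, as the log2 value of the first gene less that of the second. Only the change of this value between groups can be read, since different features are not on one scale. In 6 of 7 pairs both ATRA values lay on one side of all DMSO values, and 5 of them reached an exact two-sided permutation p of 0.1, the smallest that 3 against 2 arrays allow, which is an adjusted p of 0.14 over the 7 pairs. No pair could pass the threshold in this design. With the trend removed, p was 0.1 (exact permutation, adjusted p = 0.175) for the Hk3, Ldhb, Slc2a3 and Slc16a3 pairs only. The share of all gene pairs that part in this way was not counted, so these counts say nothing particular to isozymes. Ldhb less Ldha was 0.01, 0.41 and 0.35 in DMSO and 1.32 and 0.95 in ATRA, a shift of 0.88 toward the B subunit that became 1.09 with the trend removed. Slc2a3 less Slc2a1 was -0.35, -0.25 and -0.19 in DMSO and -1.49 and -1.24 in ATRA, a shift of -1.11 away from GLUT3, and -1.21 with the trend removed. Slc16a3 less Slc16a1 shifted by 2.77, and by 1.08 with the trend removed. Hk3 less Hk1 shifted by 0.95 and Pfkm less Pfkl by 2.09, and with the trend removed by 0.27 and 0.57, where the p for Pfkm less Pfkl was 0.3 (exact permutation). Hk2 less Hk1, at -0.83 to -0.15 in DMSO and at -0.14 and -0.03 in ATRA, shifted by 0.41 (exact permutation p = 0.2) and by 0.01 with the trend removed. Pfkp less Pfkl overlapped between groups (-0.24, exact permutation p = 0.6, and 0.36 with the trend removed).

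**Figure D4:**
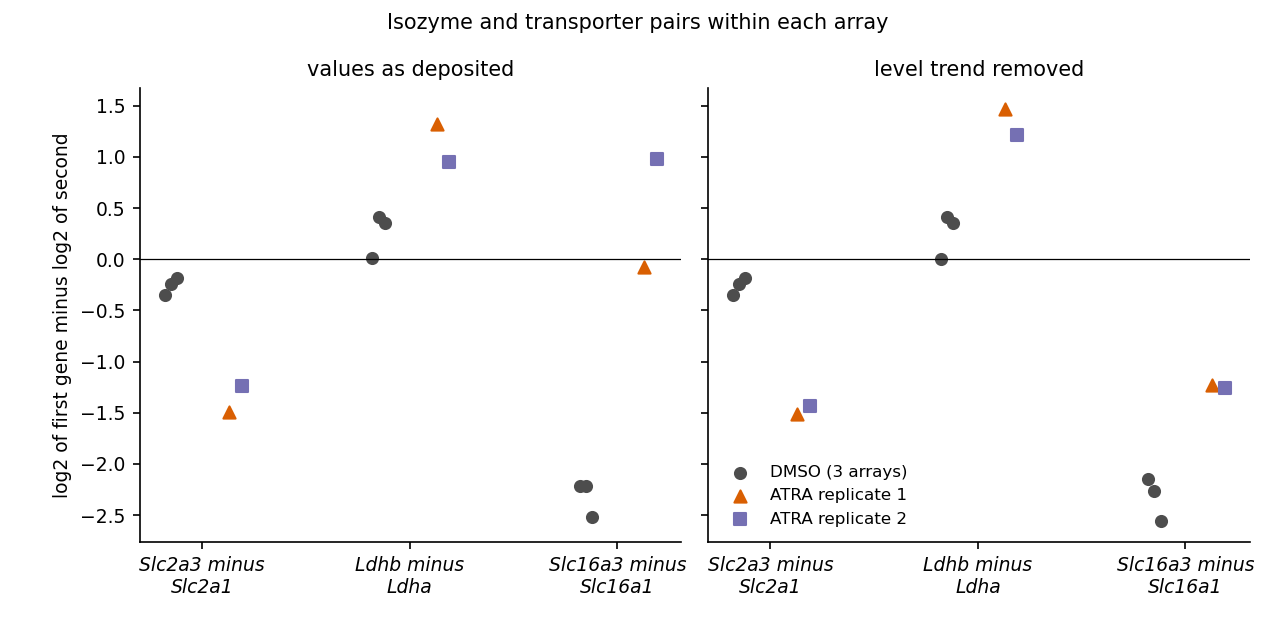
Log2 value of the first gene less that of the second within each array (vertical axis), for the glucose transporters, the lactate dehydrogenase subunits and the lactate transporters, as deposited (left) and with the level trend removed (right). Grey circles are the 3 DMSO arrays, the orange triangle ATRA replicate 1 and the violet square ATRA replicate 2. In each of the 3 pairs the ATRA arrays lie on one side of all DMSO arrays in both panels.

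The neighbouring routes were read from further lists of genes. Of 14 genes of pyruvate entry and oxidation measured, 5 fell, 0 rose and 9 did not pass (median -0.77). Among all genes 15.5% were lower. With the trend removed 1 was called lower and 0 higher, beside 1.18% and 1.64% of all genes. At an unadjusted p under 0.05 (limma) 4 were then lower and 1 higher, beside 12.6% and 10.6% of all genes. The gene called was Mpc1, a subunit of the carrier that brings pyruvate into mitochondria. Mpc2, also listed, was not analysed here. Mpc1 was at 8.73, 8.60 and 8.79 in DMSO and at 6.01 and 4.50 in ATRA, a difference of -3.45 (SE 0.47, adjusted p = 0.0156), and of -2.01 with the trend removed (adjusted p = 0.0281). Dld (-1.54), a shared subunit of the pyruvate and oxoglutarate dehydrogenases, Pdhx (-0.96) and the pyruvate dehydrogenase kinase gene Pdk3 (-2.61) fell as deposited and did not pass with the trend removed (-0.58, -0.68 and -0.50 in this order). Like Slc16a1, which moves the lactate made from pyruvate, Mpc1 was lower both as deposited and with the trend removed. Both are among the 262 genes (1.18%) called lower with the trend removed.

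Of 20 genes of the HIF pathway, 3 fell, 0 rose and 17 did not pass (median -0.52), beside 15.5% of all genes lower, and 9 fell with arrays centred, beside 20.5%. With the trend removed 0 were called in either direction, with 6 lower and 1 higher at an unadjusted p under 0.05 (limma), beside 12.6% and 10.6% of all genes. Ndrg1, a hypoxia-induced gene, fell by 1.81 (adjusted p = 0.00858), a difference of -0.01 with the trend removed. The endoplasmic reticulum oxidase gene Ero1a fell by 1.36 (adjusted p = 0.0107) and the prolyl hydroxylase gene Egln2 by 1.14 (adjusted p = 0.0381), which with the trend removed became -0.50 and 0.13 and did not pass. Hif1an, the asparagine hydroxylase that restrains HIF, differed by -0.52 as deposited (adjusted p = 0.0653) and by -0.94 with the trend removed (adjusted p = 0.0614).

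Of 5 glucose-sensing genes, 2 fell and 3 did not pass (median -0.75), where, as for the glycogen and NADPH lists that follow, 15.5% of all genes were lower. Txnip, whose product limits glucose uptake and whose transcript rises with glucose, fell by 2.84 (adjusted p = 0.0371), from 10.73, 10.96 and 11.02 to 9.01 and 7.12, and differed by -0.48 with the trend removed (adjusted p = 0.245). Mlx, the partner of the factors that induce Txnip, fell by 1.90 (adjusted p = 0.0101) and differed by -0.99 with the trend removed (adjusted p = 0.163). Of 19 genes of glycogen and gluconeogenesis, 6 fell and 13 did not pass (median -0.58). They included G6pc3 (-2.36, or -0.45 with the trend removed), the glucose-6-phosphatase of blood cells, the glycogen synthase Gys1 (-1.32, or -0.34) and Ugp2 (-2.51, or -1.20), which makes UDP-glucose. Of 12 genes of other NADPH sources, 4 fell and 8 did not pass (median -0.89), among them the NAD kinase gene Nadk (-2.22, or -0.79 with the trend removed), the malic enzyme gene Me2 (-2.31, or -0.96) and Mthfd1 (-3.04, or -1.02), a folate enzyme. None of these lists had a call with the trend removed in the limma fit, where 1 gene was lower and 1 higher in the glucose-sensing list, 5 lower and 0 higher in the glycogen list and 4 lower and 0 higher in the NADPH list at an unadjusted p under 0.05, beside 12.6% and 10.6% of all genes.

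Further isozymes, related enzymes and transporters, many but not all of them used mainly in other tissues, were mostly dimmer. Of 22 such genes, 2 rose (G6pd2 and Slc16a8), 2 fell (Ldhd and Adpgk) and 18 did not pass, beside 6.48% of all genes higher and 15.5% lower, with a median difference of 0.14 and a median DMSO level of 5.83 against 7.80 for the 30 genes above. G6pd2, a retrogene of glucose-6-phosphate dehydrogenase, was at 4.54, 4.78 and 4.34 in DMSO and at 6.58 and 5.81 in ATRA (difference 1.64, adjusted p = 0.0264), and 1.09 with the trend removed (adjusted p = 0.185). With the trend removed, 0 of the 22 were called in either direction and 3 were lower and 3 higher at an unadjusted p under 0.05 (limma), beside 12.6% and 10.6% of all genes.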

How the data were processed

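Each array has 1 log2 expression value per feature, which the authors deposited and which was used unchanged. RMA is named in the submitters' processing notes beside oligo 1.36.1 and limma 3.28.20, without saying which step each served. No source used here gives the authors' genome build, and scanner files were not used here. Precision is limited by the number of arrays.

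Of 41345 features, 23521 name 1 gene in the platform table, 1814 name several or none, and 16010 are not listed there. Symbols were updated by gene ID (23328 features matched RefSeq, GRCm38.p6). ATRA was compared with DMSO over 22180 genes by limma 3.58.1 in R 4.3.3 (lmFit and eBayes, two-sided, Benjamini-Hochberg over all genes). It was tested on simulated data, and had 3 residual and 1.52 prior degrees of freedom. The level trend was fitted by lowess (span 0.2, 3 iterations) over all features.

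The genes, lists, tests and alternatives were chosen with earlier results of these data known. All 30 genes could be named, and up to 4 of each further list, by smallest p. The level classes, and the trend-removed fits without single arrays, were chosen after seeing the data. Aldoc less Aldoa and Eno2 less Eno1 could not be compared.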

Additional observations from a re-analysis of the deposited data

How the results depend on the processing

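The call of 15 lower genes rests on all 3 DMSO arrays and on the scale of the arrays. The count ranged from 0 (without any 1 DMSO array) to 19 over the fits that leave out 1 array, and the count of higher genes stayed at 0 in them. With the level trend removed and 1 array left out, lower genes ranged from 0 to 10 and higher genes from 0 to 3. Cyclic loess left 7 lower genes and removal of the level trend 2, with 0 higher in both. The median difference of the 30 genes moved from -1.10 to -0.99 after quantile normalization, -0.48 after cyclic loess, -1.37 after centring, -0.77 with the features of a gene averaged and -0.31 with the level trend removed. Left-out arrays gave -1.18 to -0.77. The threshold at an adjusted p of 0.1 and the filters, features and variance models gave 14 to 17 lower genes.

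Some differences changed sign. With the level trend removed they were 0.67 for Aldoc, 1.22 for Gapdh, 0.27 for Ldhb, -0.048 for Pfkm, 0.11 for Pgam1, 0.81 for Pgls and 0.14 for Slc2a1. After cyclic loess they were 0.73 for Aldoc, 0.84 for Gapdh, 0.28 for Ldhb, -0.0198 for Pfkm and 0.89 for Pgls, and after quantile normalization 0.48 for Aldoc, 0.0576 for Ldhb and 0.61 for Pgls. Pfkm was at -0.0683 without ATRA replicate 2, and Tigar ranged from -0.47 without ATRA replicate 2 to 0.0472 without ATRA replicate 1. Pfkp less Pfkl turned to 0.22 after quantile normalization, 0.35 after cyclic loess, 0.36 with the level trend removed and 0.13 without ATRA replicate 1, against -0.61 without ATRA replicate 2. The cause was not tested.

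The labels number the replicates, but nothing says that equal numbers were paired. The deviations of equally numbered arrays from their group means correlated at 0.134 for number 1 and 0.0983 for number 2. With only 2 ATRA arrays these deviations mirror each other, so the values are not independent. ATRA replicate 2 also correlated with DMSO replicate 3, at 0.071, and the correlations cannot show whether arrays were paired. With the replicate number as a block, 0 genes of the 30 were called lower and 0 higher (limma, 16 lower and 0 higher at an unadjusted p under 0.05, as were 3815 and 1597 of the 22180 genes), with 1 residual degree of freedom.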
